A study of Mus musculus with 50 samples.

Results

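Methylation was examined at CpG-poor intergenic clusters in the soleus, a slow-twitch calf muscle of the mouse. A cluster is a chain of CpGs (a cytosine followed by a guanine) in which neighbouring CpGs lie at most 100 bp apart. The clusters described here were those with 2 to 9 CpGs in the genome for which the deposited annotation listed neither a promoter (3000 bp before to 1000 bp after a transcription start) nor a gene body at any measured CpG. This left 10334 of 51038 clusters (20.2%) and 17992 of 205304 measured CpGs (8.76%). Reduced representation bisulfite sequencing (RRBS) reads DNA beside MspI sites (CCGG), so that 34.1% of the CpGs in these clusters were measured. A single CpG was measured in 5256 clusters, 2 in 3248 and 3 or more in 1830.

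The WT mice were Dnmt3a flox/flox, and the mD3AKO mice were Dnmt3a flox/flox with a Cre transgene under the muscle creatine kinase promoter, which removes exon 19 of Dnmt3a in muscle fibres. All were C57BL/6 males and females aged 12 weeks, and each sample was the soleus of a mouse. Muscles were taken at rest, after a sham treadmill session, or at 10, 30 or 60 min after 30 min of treadmill running. In the order rest, 10, 30 and 60 min, the 21 WT samples numbered 5, 5, 5 and 6 and the 23 mD3AKO samples 5, 5, 7 and 6. The creatine kinase promoter acts late in muscle differentiation and in fibres, so that satellite cells, vessels and immune cells of the muscle are not its target, and whether they kept Dnmt3a was not measured here. A level in whole muscle is an average over all these nuclei, so fewer cells that lost methylation and less loss per cell cannot be told apart. The deletion itself was not measured by these counts.

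DNMT3A adds methyl groups to cytosines that carry none, as does DNMT3B, while DNMT1 copies methylation to the new strand after replication. In mammalian genomes most CpGs outside CpG islands are methylated, and intergenic DNA is usually so over long stretches. Intergenic CpGs with low or intermediate levels often lie at regulatory DNA such as enhancers, where bound factors and TET enzymes keep methylation down.

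The sequences below show what such clusters look like and carry the results that follow. Each is the plus strand of GRCm38, as given by RefSeq, from 20 bases before the first measured CpG to 20 bases after the last, and the measured CpGs are in capitals. Clusters are named after the nearest protein-coding gene, which does not say that they act on it. The first 6 were lower in mD3AKO and are taken from those with the lowest p-values among deeply covered clusters, and the last 2 had the most calls at an intermediate and at a high level.
Foxo1, chr3:52537690-52537778: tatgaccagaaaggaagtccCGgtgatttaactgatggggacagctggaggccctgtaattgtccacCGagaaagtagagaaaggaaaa
Fam173b, chr15:31627340-31627522: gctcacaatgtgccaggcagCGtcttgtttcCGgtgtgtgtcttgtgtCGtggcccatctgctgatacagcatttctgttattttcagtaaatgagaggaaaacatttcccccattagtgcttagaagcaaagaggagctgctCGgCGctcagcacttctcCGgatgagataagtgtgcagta
Sptssa, chr12:54471751-54471861: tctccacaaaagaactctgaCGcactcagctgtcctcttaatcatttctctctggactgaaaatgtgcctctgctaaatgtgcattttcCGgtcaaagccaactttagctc
Myc, chr15:62566187-62566332: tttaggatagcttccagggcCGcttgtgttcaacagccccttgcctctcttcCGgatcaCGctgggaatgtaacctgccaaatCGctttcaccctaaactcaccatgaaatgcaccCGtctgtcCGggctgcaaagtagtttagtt
Nampt, chr12:32767972-32768023: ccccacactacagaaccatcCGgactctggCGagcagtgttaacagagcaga
Srsf3, chr17:29057491-29057593: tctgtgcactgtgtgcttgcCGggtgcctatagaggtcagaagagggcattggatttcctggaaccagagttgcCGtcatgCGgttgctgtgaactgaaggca
Mcph1, chr8:18459581-18459650: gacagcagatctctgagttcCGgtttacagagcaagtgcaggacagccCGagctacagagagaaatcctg
Gm10800, chr2:98666242-98666293: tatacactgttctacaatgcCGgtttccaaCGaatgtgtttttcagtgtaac
Every sequence holds at least 1 CpG within CCGG, the MspI site. In the 183 bases of the Fam173b cluster there are 6 CpGs, and in the 89 bases of the Foxo1 cluster there are 2.

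The clusters were set beside the genome sequence. The number of CpGs listed for a cluster equalled the number in the reference in 98.2% of the clusters. The rule chose clusters of few CpGs, so their low CpG content is a description and no check. The median was 7 CpGs in 500 bp, against 11 over all 51038 clusters, which include them. The median GC content in 500 bp was 46.6% (50.8% over all clusters), and the ratio of observed to expected CpG was 0.251 (0.364 over all). CpG island criteria, a GC content of at least 50% with a ratio of at least 0.6, were met by 1 cluster (0.00968%), against 19.7% of all clusters. The first CpG lay in a repeat in 26.1% of the clusters and in 15.4% of all clusters. In GENCODE M21, which is richer than the annotation used for the table, 1566 of the clusters (15.2%) overlapped some gene, of which 943 overlapped a long intergenic RNA, 202 an antisense RNA, 186 a processed pseudogene and 78 a protein-coding gene. The nearest protein-coding gene was at a median of 47.0 kb, with quartiles of 13.6 and 161 kb.

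The total number of methylation calls was 12819404 to 41285655 per sample, of which 995948 to 3539116 lay in the clusters. The median cluster had 114.5 calls in a sample, and 2815 clusters had at least 50 calls in every sample. The lowest number was 8. PCR copies are not told apart in RRBS, so calls are not independent molecules and counting errors are lower limits. The sample with a pooled level far from its group was a WT muscle at 30 min (57.1%, where the other 4 had 65.8 to 67.4%). It was kept, and the results without each sample are given with the dependence on processing.

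In WT muscle most clusters were methylated, but far from completely. The median level over clusters was 71.7%, with quartiles of 46.4 and 86.0%, and 3838 clusters (37.1%) lay above 80%, 5643 (54.6%) between 20 and 80%, and 853 (8.25%) below 20%. In mD3AKO the median was 70.4%. Side by side and with no test, the WT median was 69.7% in 8686 equally CpG-poor clusters of gene bodies, 46.8% in 1069 CpG-poor promoter clusters, 59.1% in 8480 intergenic clusters of 10 or more CpGs, 77.8% at 1447 isolated intergenic CpGs and 52.2% over all clusters. At the limits of the rule, the WT median was 75.1% in the 1353 clusters of 2 CpGs and 67.5% in the 931 of 9 CpGs, and outside them 67.6% in 743 intergenic clusters of 10 CpGs.

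**Figure D1:**
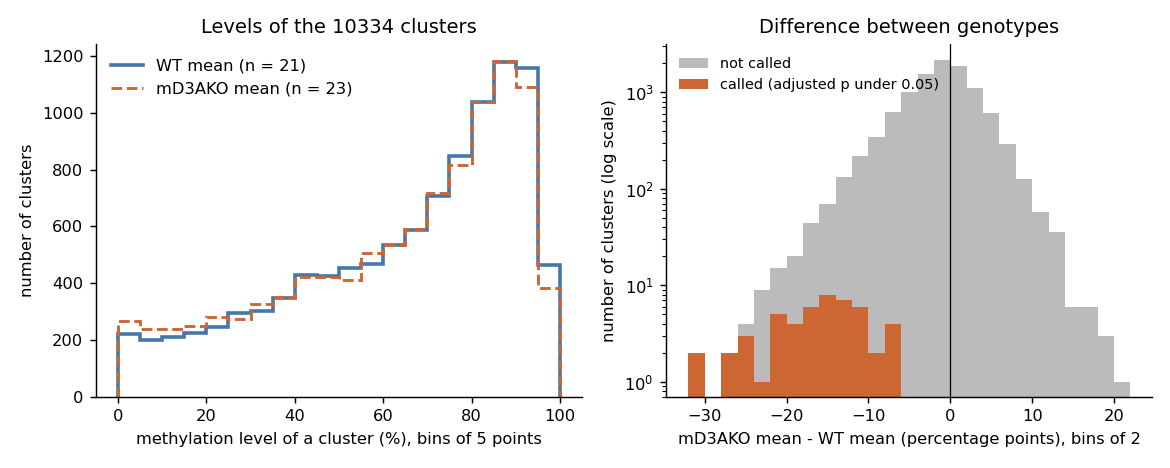
Left, number of the 10334 CpG-poor intergenic clusters (y) by methylation level (x, bins of 5 percentage points) for the WT mean (solid) and the mD3AKO mean (dashed). Right, number of clusters (y, log scale) by mD3AKO mean minus WT mean (x, bins of 2 percentage points), with called clusters in orange drawn in front of the others. Both outlines on the left peak above 80%, and the called clusters on the right lie between -30.6 and -6.18 points, with none above 0.

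The spread of a level between animals is given beside its counting error. The median SD between the 21 WT samples was 12.9 percentage points, whereas the binomial error of the calls had a median of 3.73 points. In the 2815 deeply covered clusters these were 9.41 and 2.63 points. Neighbouring CpGs of a cluster also differed. In the 5078 clusters with 2 or more measured CpGs the WT level differed by a median of 12.5 points between the highest and the lowest CpG, and in 257 clusters by over 50 points.

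The cluster with the most calls had a narrow spread. It lay on chromosome 2 near Gm10800, had a median of 27005.5 calls per sample (236 times the median cluster) and held 1.44% of all calls of the clusters. Whether so many calls came from a single place or from several copies of the sequence was not tested. This cluster may therefore not stand for the others. Its lowest, median and highest levels were 90.5, 91.6 and 92.1% in WT and 90.1, 91.4 and 92.4% in mD3AKO, and the groups overlapped fully. In WT the mean was 91.4% ± 0.490 (SD, n = 21), and in mD3AKO it was 91.4% ± 0.631 (SD, n = 23; edgeR, adjusted p = 1.0). The CpG in CCGG was at 94.96% and that in ACGA, 10 bp on, at 87.8%. At an intermediate level the deepest cluster lay 136 kb before Mcph1, a gene of chromosome condensation, with 50.99, 61.0 and 72.2% in WT and 46.9, 59.2 and 70.8% in mD3AKO (lowest, median, highest). These ranges overlapped, and the means of 61.9% ± 5.40 and 58.3% ± 5.34 were not separated by the test (adjusted p = 0.775). Its first CpG was at 76.3% in WT and its second, 28 bp on, at 47.4%. Among clusters below 20% the deepest lay 4.93 kb before Onecut2, a homeobox gene, with 1.64, 6.35 and 15.0% in WT and 0.120, 5.82 and 8.82% in mD3AKO, which again overlapped (6.503% ± 3.24 against 5.23% ± 2.05, adjusted p = 0.847).

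WT levels differed with the sequence and the position of the clusters, given here as a description. Clusters whose first CpG lay in a repeat had a median of 81.3%, and the 7634 others 66.4%. By GC content in 500 bp, the median was 75.5% at up to 45%, 73.5% at 45 to 50% and 56.9% above 50%. With distance from the nearest protein-coding gene it was 66.4% within 10 kb, 70.3% at 10 to 100 kb, 74.4% at 100 to 500 kb and 78.1% beyond 500 kb. Repeats, GC content and distance overlap with each other, and their parts were not tested.

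Motifs were searched in the 300 bp centred on each cluster. CAGCTG, an E-box of the kind that MyoD and related muscle factors bind (the same on both strands), was found at 1540 of the clusters (14.9%) and at 17.2% of all clusters. The clusters that held it had a median WT level of 56.4%, against 73.7% for those that did not. The lower level with CAGCTG was seen at each GC content, with 67.4 against 76.4% at up to 45% GC, 59.2 against 75.6% at 45 to 50% and 40.8 against 60.9% above 50%. Outside repeats it was 52.9 against 69.0%. CTANNNNTAG, the same on both strands, was at 3.48% of the clusters (3.03% of all), with a median of 69.1% against 71.8%. This pattern is looser than the MEF2 site, because any bases may lie between CTA and TAG. Its matches therefore need not be MEF2 sites. CATTCC, the core of TEAD sites, searched on both strands, was at 17.9% (16.1% of all), with 67.3% against 72.6%. A match is no proof of a bound site.

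**Figure D2:**
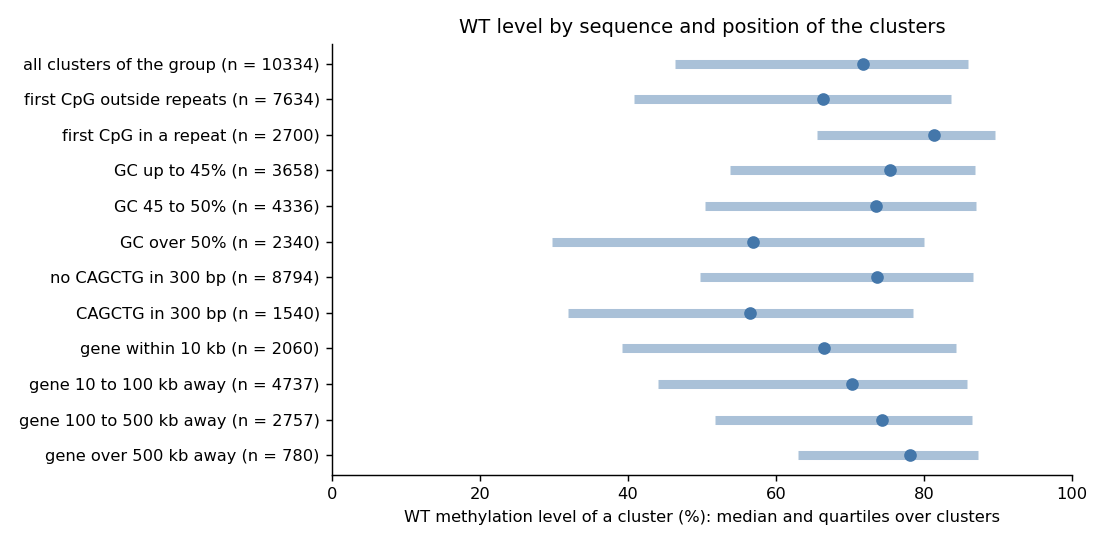
WT methylation level (x, %) of the CpG-poor intergenic clusters by repeat, GC content in 500 bp, CAGCTG in 300 bp and distance to the nearest protein-coding gene (y, with the number of clusters). Points are medians and bars quartiles over clusters, and the lowest medians are those with CAGCTG (56.4%) and with GC over 50% (56.9%).

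The bases beside the CpG also went with its level. Of the CpGs in the clusters 57.3% lay in CCGG, against 29.6% of all measured CpGs, and they had a median WT level of 69.4%. Among the 7677 others, the median was 80.8% where the CpG was followed by C, 75.0% by G, 71.1% by A and 68.2% by T. The highest of the 16 contexts was GCGC with 84.7% and the lowest ACGT with 64.0%.

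Whether loss of DNMT3A in muscle lowers these levels was asked first over all clusters together. The mean level of the 10334 clusters in a sample had a lowest, median and highest value of 60.5, 65.1 and 67.3% in WT and of 59.3, 63.1 and 65.6% in mD3AKO. The groups overlapped widely, although 18 of 23 mD3AKO samples lay below the WT mean. The means were 64.4% ± 1.94 (SD, n = 21) and 63.0% ± 1.72 (SD, n = 23), a difference of -1.36 points. This is smaller than the SD of either group, but that SD describes single samples and not the error of the difference. At rest the difference was -0.640 points, and in the order of the 3 times after exercise -0.860, -2.22 and -1.67 points. It was -1.57 in females and -1.18 in males. The labels number the samples, with 1 to 25 taken at rest or 60 min and 26 to 50 at 10 or 30 min, and within these sets the difference was -1.20 and -1.52 points. In the other kinds of clusters it was -2.31 points in CpG-poor gene bodies, -1.87 in CpG-poor promoters, -1.19 in intergenic clusters of 10 or more CpGs and -0.937 at isolated intergenic CpGs, and -1.46 over all clusters. No p is given for these means, since the clusters were chosen as a set.

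**Figure D3:**
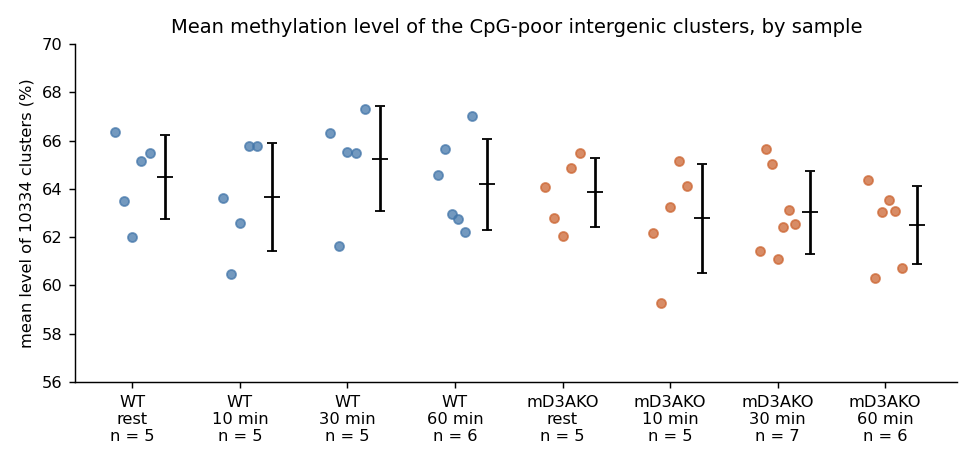
Mean methylation level of the 10334 clusters (y, %, axis from 56 to 70) in each sample (points), by genotype and time after exercise (x). Black bars are the group mean and SD. The WT samples lie between 60.5 and 67.3% and the mD3AKO samples between 59.3 and 65.6%, and the groups overlap at each time.

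Cluster by cluster, the median difference was -0.896 points, and 60.1% of the clusters were lower in mD3AKO (all clusters, -0.455 points and 62.4%). A fall of 10 points or more was seen at 555 clusters (5.37%) and a rise of that size at 110 (1.06%). Among the 2815 deeply covered clusters it was 91 against 1.

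The genotype effect over all times passed the test (edgeR quasi-likelihood, Benjamini-Hochberg adjusted p under 0.05 over all 51038 clusters) at 50 clusters, which are termed called clusters here. All 50 were lower in mD3AKO and 0 were higher. They made up 0.484% of the CpG-poor intergenic clusters, where the background over all 51038 clusters was 1.09% in either direction, 1.08% lower and 0.00588% higher. The share was thus below the background, and it was 1.12% in CpG-poor gene bodies, 1.31% in CpG-poor promoters, 0.943% in the denser intergenic clusters and 0.138% at isolated intergenic CpGs. The shares were not tested against each other. The median number of calls per cluster and sample, over all such values of a kind, was 117 in these clusters, 119 in CpG-poor gene bodies, 128 in CpG-poor promoters, 209 in the denser intergenic clusters and 72.0 at isolated intergenic CpGs. Over all clusters it was 177, and whether depth bears on the shares was not tested. In the deeply covered clusters 22 of 2815 were called (0.782%). The share over all clusters of that depth was not read, so this share has no background here. At an unadjusted p under 0.05 there were 742 clusters (7.18%, background 9.56%), of which 644 were lower and 98 higher. The likelihood ratio test of edgeR called 192 clusters (172 lower, 20 higher, background 2.84%), and limma called 107 (104 lower, 3 higher, background 1.75%).

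The called clusters lost methylation by unequal amounts. The median fall was -15.6 points, between -30.6 points near Sox4 and -6.18 points near Kcnh2, with 44 clusters down by 10 points or more and 13 by 20 or more. Their median level was 68.3% in WT and 43.4% in mD3AKO. Of the 50, 6 were below 20% in WT, 28 between 20 and 80% and 16 above 80%, and the median mD3AKO level was 33.0, 55.5 and 85.9% of the WT level in these classes. In 16 clusters mD3AKO had less than 50% of the WT level. All 119 measured CpGs of the called clusters had a lower mean in mD3AKO, 108 of them by 5 points or more. The clusters were called on the sums of these CpGs in these samples, so these counts describe them and test nothing. No called cluster had WT and mD3AKO samples without overlap, and none of the other CpG-poor intergenic clusters did. How many of all clusters lacked overlap was not read, so this result has no background here.

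The lowest p was at the Foxo1 cluster, 184 kb past the end of Foxo1 on chromosome 3 and over the long non-coding RNA Gm30173. FOXO1 is a transcription factor held back by insulin signalling that drives genes of muscle atrophy. The lowest, median and highest levels were 54.3, 71.8 and 91.4% in WT and 18.0, 46.1 and 66.7% in mD3AKO. The ranges overlapped, but 20 of 23 mD3AKO samples lay below every WT sample. The means were 71.8% ± 8.10 (SD, n = 21) and 44.5% ± 11.8 (SD, n = 23), a difference of -27.3 points (SE 3.02, edgeR adjusted p = 2.83e-05). Both CpGs fell, from 76.5 to 44.3% at the CCGG and from 67.7 to 44.6% at the CpG 47 bp on. At rest the WT samples had 56.7, 91.4, 73.2, 68.5 and 69.1% and the mD3AKO samples 46.1, 52.9, 60.6, 39.6 and 63.4%, with some overlap. At 10 min the WT samples had 75.3, 67.6, 74.9, 69.7 and 84.6% and the mD3AKO samples 49.8, 30.8, 40.7, 48.9 and 45.5%, with none. The differences at rest, 10, 30 and 60 min were -19.3, -31.3, -27.2 and -29.7 points. Another cluster 1668 bp away was at 29.7% in WT and 32.1% in mD3AKO.

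The Fam173b cluster lay 6.13 kb past Fam173b, the gene of a lysine methyltransferase of mitochondrial ATP synthase, on chromosome 15. Its lowest, median and highest levels were 13.1, 29.4 and 42.6% in WT and 6.67, 11.4 and 25.7% in mD3AKO. The ranges overlapped, with 14 of 23 mD3AKO samples below every WT sample. The mean fell from 28.2% ± 9.49 to 12.4% ± 4.97, by -15.7 points (SE 2.31, adjusted p = 5.31e-05). All 6 CpGs were lower, with differences from -9.16 points at the GCGT to -19.9 points at the first CCGG.

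Near Sptssa, which encodes a small subunit of serine palmitoyltransferase, the cluster was 174 kb past the gene on chromosome 12. The levels were 71.7, 89.7 and 98.99% in WT and 36.6, 74.5 and 85.9% in mD3AKO (lowest, median, highest), and 7 mD3AKO samples lay below every WT sample. The mean fell from 88.9% ± 6.37 to 72.6% ± 10.2, by -16.3 points (SE 2.53, adjusted p = 0.000514). The muscle at 36.6% was a single mD3AKO sample at 60 min, where the other 5 had 69.5 to 76.7%.

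The Myc cluster lay 576 kb past Myc, the growth-related transcription factor that rises in muscle after exercise, on chromosome 15. The levels were 4.95, 15.3 and 33.8% in WT and 0.597, 3.49 and 12.3% in mD3AKO, with 14 mD3AKO samples below every WT sample. The mean fell from 16.3% ± 8.76 to 4.74% ± 3.55, by -11.5 points (SE 2.05, adjusted p = 0.000514). Its 6 CpGs were at 7.43 to 25.7% in WT and at 2.84 to 7.51% in mD3AKO.

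The Nampt cluster was 51.5 kb before Nampt, the rate-limiting enzyme of NAD salvage, on chromosome 12. The levels were 26.6, 47.0 and 71.8% in WT and 5.56, 25.8 and 41.8% in mD3AKO, with 13 mD3AKO samples below every WT sample. The mean fell from 47.2% ± 14.2 to 25.8% ± 8.96, by -21.4 points (SE 3.61, adjusted p = 0.00124). The pair of CpGs, 10 bp apart, fell by similar amounts (-23.3 and -19.5 points).

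The Srsf3 cluster, 14.1 kb past this gene of a splicing factor on chromosome 17, lay over Trp53cor1, the long non-coding RNA known as lincRNA-p21. The levels were 31.9, 55.6 and 71.7% in WT and 11.5, 33.5 and 69.9% in mD3AKO, so that the ranges nearly coincided at the top. The mean fell from 53.1% ± 11.4 to 34.3% ± 12.4, by -18.8 points (SE 3.58, adjusted p = 0.00882). Of its 3 CpGs the last 2, 54 and 61 bp from the first, fell most (-18.3 and -24.2 points, and -9.58 at the first).

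A further 3 named clusters lay near Tuba1a, Rngtt and Vldlr, which encode an alpha-tubulin, the mRNA capping enzyme and the very low density lipoprotein receptor. The Tuba1a cluster fell from 42.0% ± 15.6 to 23.0% ± 11.0 (adjusted p = 0.0108), with medians of 40.7 and 20.7% and ranges of 19.6 to 77.2% and 6.99 to 50.4%. The Rngtt cluster fell from 22.9% ± 9.50 to 11.4% ± 6.97 (adjusted p = 0.0128), with medians of 24.5 and 11.7% and ranges of 5.74 to 42.6% and 1.05 to 30.4%. At rest its means were nearly equal, 21.4% ± 13.0 in WT and 20.9% ± 6.30 in mD3AKO. At 10, 30 and 60 min they were 19.7, 25.0 and 25.2% in WT and 6.82, 9.41 and 9.56% in mD3AKO. The Vldlr cluster fell from 71.7% ± 9.79 to 54.0% ± 15.2 (adjusted p = 0.0130), with medians of 70.9 and 55.4% and ranges of 53.1 to 86.5% and 23.2 to 81.8%. In all 3 the groups overlapped, with 11, 5 and 9 mD3AKO samples below every WT sample. These 9 named clusters stayed called without any one sample, but in the likelihood ratio test 4 were not (Srsf3, 0.103; Tuba1a, 0.0569; Rngtt, 0.0556; Vldlr, 0.116, adjusted p), and with CpGs of at least 20 reads Rngtt was not (adjusted p = 0.813).

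**Figure D4:**
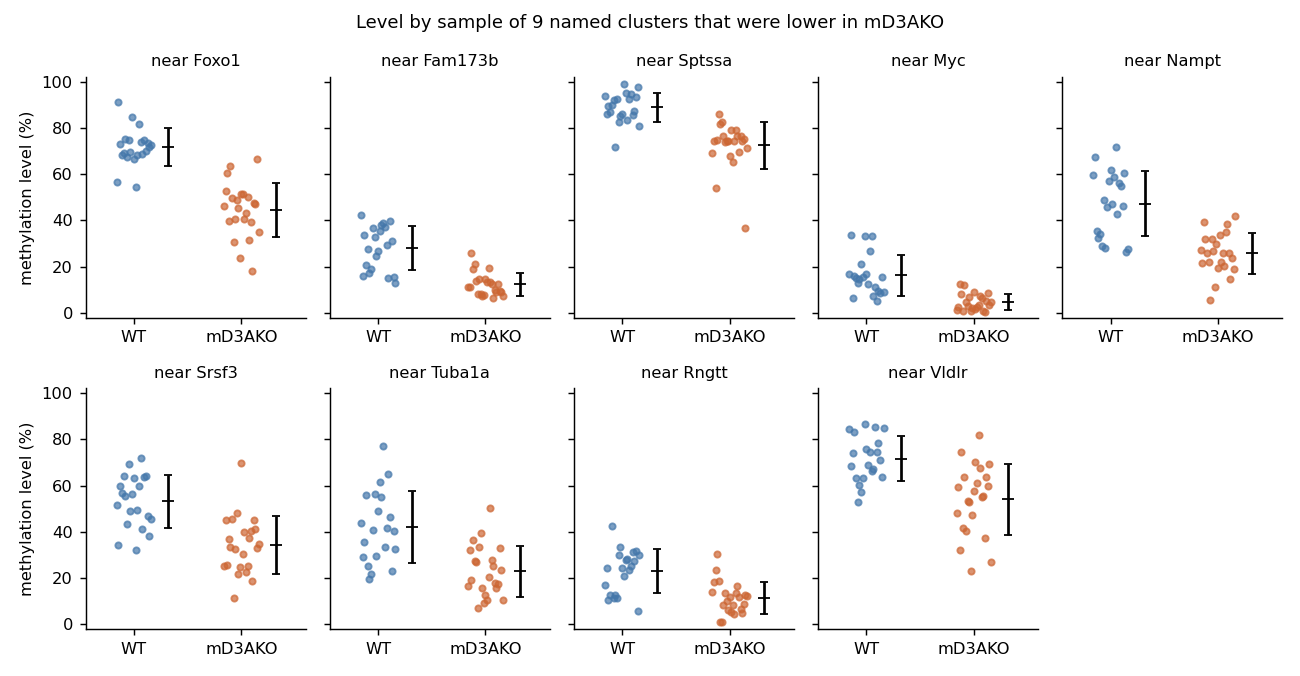
Methylation level (y, %) in each WT (blue) and mD3AKO (orange) sample of 9 named clusters lower in mD3AKO, with the mean and SD in black beside the points. The mD3AKO points are lower but overlap the WT points in each panel. In the Foxo1 panel 20 of 23 mD3AKO samples lie below every WT sample.

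Other called clusters are given by what the nearest gene encodes, an order made after the calls were known. Near genes of transcription factors, the level fell by -30.6 points near Sox4 (67.6 to 36.9%), -25.8 near Ets2 (80.4 to 54.6%), -20.7 near Zbtb44 (79.5 to 58.9%), -19.9 near En1 (79.8 to 59.9%), -10.5 near Hes1, a Notch target (84.6 to 74.1%), and -10.05 near Cebpb (70.7 to 60.7%). The Sox4 cluster was 288 kb past Sox4 and over the RNA 2610307P16Rik, and rested on a single CpG with a median of 67.5 calls. The En1 cluster lay over the RNA 2610027F03Rik.

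Near genes of signals, receptors and immune proteins, the level fell by -23.2 points near Ly86 (44.0 to 20.8%) and -21.3 near Cd180 (87.4 to 66.1%), whose products form a complex on B cells. It fell by -18.3 points near Osmr, the oncostatin M receptor, by -14.7 near Oxtr, the oxytocin receptor, by -13.2 near Csf2, a growth factor of granulocytes and macrophages, by -7.94 near Vegfa, the angiogenic factor (11.9 to 3.91%), and by -7.53 near Prl, the prolactin gene (97.5 to 89.9%). The Csf2 cluster had no detected methylation in some samples of both genotypes. The SD in WT was 25.1 points near Ly86 and 19.5 near Cd180, both above the median of 11.4 points of the called clusters.

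Near genes of channels, transporters and synaptic proteins, the level fell by -27.5 points near Syt15, a synaptotagmin (62.8 to 35.4%), by -17.7 near Slco2b1, an organic anion transporter, by -13.2 near Slc6a7, a proline transporter, and by -6.18 near Kcnh2, a potassium channel gene (9.50 to 3.32%).

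Near genes of enzymes and of DNA and RNA proteins, it fell by -24.7 points near Smug1, a uracil-DNA glycosylase (48.7 to 24.1%), by -17.5 near Osgin1, an oxidative stress response gene (21.1 to 3.67%), by -13.7 near Pecr, a peroxisomal enoyl-CoA reductase (95.2 to 81.4%), by -12.8 near Otud4, a deubiquitinase, by -14.9 near Cecr2, a chromatin remodelling subunit, and by -10.5 near Bche, butyrylcholinesterase (98.5 to 87.96%). The Smug1 cluster lay 0.933 kb before Smug1 in GENCODE M21, although the deposited annotation gave it no promoter. The clusters near Pecr and Bche, like that near Cd180, had only 8 calls in their shallowest sample.

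Clusters near Pkn2, a protein kinase, were called at a pair of places 50.4 and 631 kb before the gene (-30.4 and -13.1 points). A pair 109 bp apart lay 100.8 and 100.9 kb before Tmem45b (-14.1 and -17.5 points). Further called clusters were near 1700020N01Rik (-25.5 points), Chmp4b (-21.0), Phlda1 (-21.0), Ccdc42 (-17.2), Lgalsl (-16.0), Nhlrc2 (-15.0), Gm826 (-14.7), Ssbp3 (-13.2), Tmem30b (-12.7), Wdr1 (-10.5), Gm11733 (-9.73) and Sestd1 (-8.71). Of the 50 called clusters, 28 had fewer than 50 calls in some sample.

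The called clusters were also counted in gene lists of muscle and methylation biology, beside the 0.484% called among the 10334 clusters and the 1.09% among all clusters. Of the clusters nearest to exercise-induced genes 2 of 23 were lower (Myc and Vegfa), of those nearest to T-box, Sox, Gata and Fox genes 2 of 93 (Foxo1 and Sox4), and of those nearest to homeobox genes 1 of 110 (En1). None was called among 29 clusters near myogenic regulators, 5 near sarcomere and cytoskeleton genes, 17 near genes of glucose and energy metabolism, 25 near genes of non-myofibre lineages, 7 near the methylation machinery and 30 near imprinted genes, and 0 were higher in any list. At an unadjusted p under 0.05, where the share was 7.18% of the 10334 clusters and 9.56% of all clusters, the exercise list held 8 of 23, the T-box, Sox, Gata and Fox list 10 of 93 and the homeobox list 8 of 110, and the lists without a call held 2, 1, 2, 2, 0 and 1 in the order above. The lists are small and were chosen with earlier results known, so these counts are a description. The median difference was -4.80 points in the exercise list, -3.81 in the glucose list, -2.05 in the non-myofibre list, -1.94 in the imprinted list, -1.62 in the T-box, Sox, Gata and Fox list, -0.310 in the homeobox list, -0.284 in the myogenic list, 0.0962 in the methylation list and 1.81 in the sarcomere list, against -0.896 over the 10334 clusters.

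The clusters with the lowest p in the lists without a call show the size of differences that did not pass. Near Prox1, a homeobox factor of slow muscle fibres and lymphatic vessels, the level was higher in mD3AKO, with 32.8, 78.5 and 94.0% in WT and 51.9, 90.4 and 100% in mD3AKO (lowest, median, highest). The ranges overlapped, and the means were 72.4% ± 17.1 and 86.8% ± 13.8, a difference of 14.4 points (adjusted p = 0.0952, and 0.00938 in the likelihood ratio test and 0.0251 in limma). Near Tpm1, an alpha-tropomyosin, the level was 25.5% ± 15.0 in WT and 10.4% ± 12.0 in mD3AKO (adjusted p = 0.125, and 0.00420 in the likelihood ratio test). Near Hk2, the hexokinase of muscle, it was 81.5% ± 16.1 and 67.9% ± 18.8 (adjusted p = 0.332). Near Pecam1, an endothelial marker, it was 88.1% ± 7.31 and 81.6% ± 9.13 (adjusted p = 0.342). Near Rasgrf1, an imprinted gene, it was 19.4% ± 20.1 and 10.3% ± 10.1 (adjusted p = 0.488), and near Tet2, a dioxygenase that oxidises methylcytosine, 4.45% ± 4.98 and 2.64% ± 4.62 (adjusted p = 0.575).

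Features of the called clusters are given beside those of all 10334, with no test. CAGCTG was in the 300 bp centred on the cluster in 16 of 50 (32.0%, against 14.9%), among them those near Foxo1, Sptssa and Myc. CTANNNNTAG was at 1 (2.00%, against 3.48%) and CATTCC at 9 (18.0%, against 17.9%). The first CpG lay in a repeat in 7 (14.0%, against 26.1%). The nearest protein-coding gene was within 10 kb in 10 (20.0%, against 19.9%) and beyond 100 kb in 10 (20.0%, against 34.2%). A gene of GENCODE M21 was overlapped by 10, none of them protein-coding. The number of measured CpGs was 1 in 10 called clusters and 3 or more in 18, so that 0.190% of clusters with 1 measured CpG were called and 0.984% of those with 3 or more, and the number of calls rises with the number of CpGs.

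Levels were also read at the neighbours of the called clusters. Another cluster of the table lay within 5 kb of 17 of them, and 13 of these neighbours were lower in mD3AKO, with a median of -4.01 points and 3 called. The called neighbours were the pair near Tmem45b, each the neighbour of the other, and the CpG 107 bp from the Sox4 cluster. That pair is thus counted from both sides, and its neighbours were lower and called by the choice of clusters itself. For all 2663 clusters with such a neighbour, 61.1% of neighbours were lower, the median was -0.618 points and 1.01% were called. The neighbours differed in how far they moved. A CpG 107 bp from the Sox4 cluster was lower by -29.5 points (72.1 to 42.6%), and a cluster 141 bp from the Ly86 cluster by -21.4 points, each near the difference of the called cluster itself. At 119 bp from the Osgin1 cluster the neighbour differed by -6.88 points (against -17.5 in the called cluster), at 365 bp from the Srsf3 cluster by -3.84 points (against -18.8) and at 712 bp from the Tuba1a cluster by -5.24 points (against -19.0). Of neighbours over 1 kb away, that of the Smug1 cluster differed by -3.77 points (1317 bp, against -24.7), that of the Cecr2 cluster by -11.8 points (2671 bp, against -14.9), that of the Vegfa cluster by -10.4 points (4029 bp, against -7.94) and that of the En1 cluster by 5.61 points (3458 bp, against -19.9). Others over 1 kb away differed by -4.01 points near Syt15, -1.82 near Tmem30b, 0.248 near Pecr, 1.83 near Kcnh2 and 2.39 near Foxo1.

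The genotype effect was then read at each time. No cluster passed the test at rest, 10, 30 or 60 min (0 in each, edgeR quasi-likelihood), where the background over all 51038 clusters was 0.00392, 0.0137, 0.0176 and 0.00784%. At an unadjusted p under 0.05 there were 380, 445, 403 and 427 clusters (background 4.69, 5.12, 5.13 and 5.23%). The likelihood ratio test called 21, 39, 27 and 24 clusters (background 0.3, 0.421, 0.406 and 0.274%), and limma 0, 0, 1 and 0 (background 0.0216, 0.0294, 0.0568 and 0.0451%). Each time has 10 to 12 samples, against 44 in the test over all times. The called clusters were lower at each time all the same, with a median difference of -14.8, -16.8, -16.8 and -14.4 points at rest, 10, 30 and 60 min. They were chosen on these samples together, so these medians describe them and test nothing. A lower level at all 4 times was seen in 49 of 50 called clusters, the exception being that near Cd180 (8.53 points at rest and -40.8 at 60 min). Some of these differences were small, as at rest near Rngtt (means of 21.4% in WT and 20.9% in mD3AKO). Of the 10334 clusters, 1291 (12.5%) were lower at all 4 times and 474 higher at all 4. In both sets of sample numbers 50 of 50 were lower, with medians of -15.0 points (rest and 60 min) and -14.8 points (10 and 30 min).

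**Figure D5:**
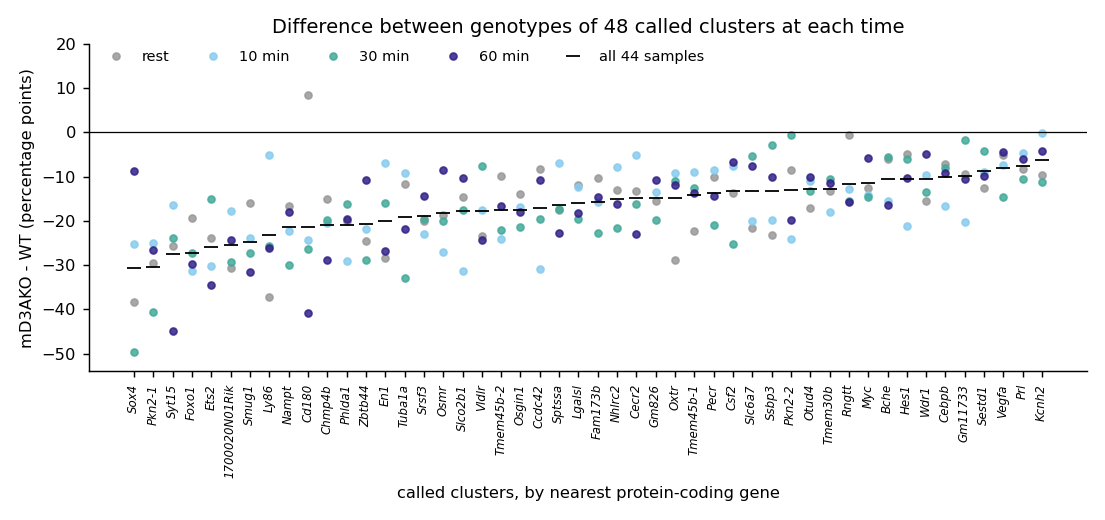
mD3AKO mean minus WT mean (y, percentage points) of 48 of the 50 called clusters (x, by nearest protein-coding gene) at rest and at 10, 30 and 60 min after exercise (coloured points) and over all 44 samples (black dashes). Points lie below 0 but for the Cd180 cluster at rest (8.53 points), and the spread between times is widest at Sox4 and Cd180.

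Exercise was compared with rest within each genotype. In WT, 0 clusters passed the test at 10, 30 and 60 min, and in mD3AKO 0 at each of these times (edgeR quasi-likelihood, background 0% in each). The 3 comparisons of a genotype share its samples at rest. Samples at rest and 60 min are numbered 1 to 25, and those at 10 and 30 min 26 to 50. Differences of 10 or 30 min from rest thus cannot be told apart from differences between these sets. The same limit holds for time and the interaction below. At an unadjusted p under 0.05 there were 449, 295 and 356 clusters in WT (background 4.29, 3.17 and 3.67%) and 243, 254 and 316 in mD3AKO (background 2.89, 2.8 and 3%). The likelihood ratio test called 25, 10 and 12 in WT (background 0.208, 0.0764 and 0.11%) and 4, 6 and 10 in mD3AKO (background 0.0274, 0.0647 and 0.0745%), and limma 0 in each (background 0%). The mean level of the clusters in WT at rest was 64.5% ± 1.75 (n = 5), and after exercise 63.6% ± 2.24 (10 min, n = 5), 65.3% ± 2.16 (30 min, n = 5) and 64.2% ± 1.88 (60 min, n = 6). These means differ by less than their SD, which describes single samples and not the error of a mean.

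Time over both genotypes, and its interaction with genotype, also gave 0 clusters (background 0% for both), with 234 and 229 at an unadjusted p under 0.05 (background 2.85 and 2.73%), 67 and 80 in the likelihood ratio test (background 0.739 and 0.75%) and 0 and 0 in limma (background 0 and 0.00196%). The lowest p for time was at clusters near Zfp608, a zinc finger gene, and Cox10, which is needed to make haem a for cytochrome c oxidase. In the Cox10 cluster the WT samples had 50.4, 37.1, 36.8, 38.6 and 40.0% at rest and 58.1, 62.3, 80.1, 70.8 and 60.4% at 10 min. All WT samples at 10 min lay above those at rest, and the WT mean was 50.4% ± 9.20 at 30 min and 42.2% ± 8.65 at 60 min. In mD3AKO the Cox10 cluster was at 53.2% ± 8.21 at rest and 62.5% ± 6.62 at 10 min, with overlap, and time did not pass the test (adjusted p = 1.0). In the Zfp608 cluster the WT mean at rest was 89.5% ± 3.74, and in the order of the times after exercise 97.4% ± 2.69, 96.3% ± 3.09 and 90.3% ± 3.29 (adjusted p = 1.0). These WT means were alike within each set of sample numbers, rest with 60 min and 10 with 30 min. The mD3AKO means did not pair in this way, with 86.8, 92.3, 87.6 and 83.2% at rest, 10, 30 and 60 min. In the Cox10 cluster the WT means at 10 and 30 min also differed (66.3 and 50.4%).

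The lowest p for the interaction was at clusters near Zc3h13, a subunit of the complex that methylates adenines of mRNA, and Olfr275, an olfactory receptor gene. In the Olfr275 cluster the WT samples had 100, 99.3, 98.7, 86.2 and 100% at rest and 70.9, 55.6, 71.8, 81.3 and 73.8% at 10 min, while the mD3AKO samples had 86.2, 80.2, 64.1, 68.5 and 88.5% at rest and 86.4, 100, 98.8, 81.4 and 100% at 10 min. The WT samples at 10 min were all below those at rest, and the mD3AKO samples went the other way with overlap. The difference was -19.3 points at rest and 22.6 at 10 min (interaction, adjusted p = 1.0, and 0.00500 in the likelihood ratio test). The Zc3h13 cluster was at 100% in every WT sample at 10 and 60 min, with 77.0% ± 11.1 and 72.3% ± 22.5 in mD3AKO (adjusted p = 1.0, and 4.13e-05 in the likelihood ratio test). It had a median of 49.0 calls per sample.

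Sex, added as a term, gave 0 clusters (background 0%), with 376 at an unadjusted p under 0.05 (background 4.36%), 20 in the likelihood ratio test (background 0.259%) and 0 in limma (background 0%). The lowest p was at clusters near Fam181a and Gm6993 on chromosome 12. The Gm6993 cluster was at 66.9% ± 7.80 in females (n = 21) and 54.4% ± 9.33 in males (n = 23), with 66.8 and 54.1% in WT and 67.0 and 54.6% in mD3AKO (adjusted p = 0.956). The Fam181a cluster was at 12.4% ± 17.9 in females and 0.875% ± 2.91 in males (adjusted p = 0.892), with a median of 0% in both genotypes.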

How the data were processed

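The deposited table gives, for each CpG and sample, counts of methylated and unmethylated calls with no normalization. The authors trimmed single-end 75 bp reads (Trim Galore 0.4.0, cutadapt 1.9.1), aligned them to mm10 with Bismark 0.18.1 and left out any CpG with fewer than 8 reads in a sample. Promoters, gene bodies and clusters were used as deposited. Of 50 samples in the labels, 44 had counts in the table, and 6 were not used here.

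Counts were summed over the measured CpGs of a cluster. All 51038 clusters were fitted in edgeR 4.0.16 (R 4.3.3) with a coefficient per sample, the means of the 8 groups and a common dispersion, and tested by the quasi-likelihood F test, two-sided, with Benjamini-Hochberg adjustment. A solver with identical calls was used for repeated fits, and the procedure was tested on simulated data. Per the study's methods, littermates of one sex shared cages. Which samples shared a litter or cage is not given in the sources used here and was not modelled. The tests therefore treat the muscles as independent and set a difference against the spread between them. The alternatives were the likelihood ratio test, limma 3.58.1 on log2((methylated + 1)/(unmethylated + 1)), a minimum of 20 reads, subsets of times, a sex term, a level filter and leaving out each sample. A level is methylated over all calls. GC content and motifs came from GRCm38, genes from GENCODE M21.

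Named were the 10 called clusters with the lowest p among those lower by at least 10 points with at least 50 calls in every sample, any higher clusters (none), the 2 with the lowest p for time, interaction and sex, the deepest cluster in each level class, and the lowest p in each gene list. Of the 50 called clusters, 2 count in all totals but are not reported by name here, 1 of them among the 10. The clusters and lists were chosen with earlier results of these data known.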

Additional observations from a re-analysis of the deposited data

Results flagged for a closer look

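In groups of 4 to 10 samples, a sample was singled out where its gap to the nearest other sample was a large part of the range of the group (Dixon's criterion). This held in 25 of 213 groups of the named clusters and of the pooled level (11.7%). The rate of about 1 in 20 by chance holds for normally distributed values, which levels at the floor or ceiling are not. The groups also reuse the same samples, so the flagged share was not tested against that rate. Sample names give the genotype, the time (Bas for rest) and the sample number.

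The pooled level of all clusters was 57.1% in a WT sample at 30 min, WT_30_32 (others 65.8 to 67.4%), which was also at 39.5% in the En1 cluster (others 77.8 to 92.8%). The mD3AKO sample at rest KO_Bas_12 was at 15.3% in the Hk2 cluster (others 69.0 to 83.0%) and at 70.8% in the Mcph1 cluster (60.0 to 61.3%). WT_60_22 was at 50.0% in the En1 cluster and at 5.74% in the Rngtt cluster (25.3 to 31.6%).

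At rest, WT_Bas_11 was at 77.1% in the En1 cluster, WT_Bas_1 at 50.4% in the Cox10 cluster (36.8 to 40.0%), WT_Bas_14 at 86.2% in the Olfr275 cluster, KO_Bas_2 at 34.8% in the Fam181a cluster (others 0%) and KO_Bas_21 at 23.3% in the Tpm1 cluster (0 to 5.17%). At 10 min, WT_10_30 was at 32.8% in the Fam181a cluster, WT_10_42 at 15.0% and KO_10_26 at 0.120% in the Onecut2 cluster, and WT_10_35 at 54.8% in the Hk2 cluster.

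At 30 min, KO_30_29 was at 69.9% in the Srsf3 cluster (22.6 to 40.0%) and at 15.3% in the Fam181a cluster, KO_30_27 at 71.9% in the Zc3h13 cluster, KO_30_41 at 72.3% in the Olfr275 cluster and 37.3% in the Tpm1 cluster, KO_30_48 at 3.25% in the Tet2 cluster and KO_30_33 at 38.0% in the Rasgrf1 cluster. At 60 min, KO_60_19 was at 36.6% in the Sptssa cluster (69.5 to 76.7%), KO_60_3 at 5.56% in the Fam181a cluster and WT_60_25 at 63.4% in the Prox1 cluster (82.6 to 94.0%).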

How the results depend on the processing

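The 50 clusters called for genotype became 192 in the likelihood ratio test (34 of the 50 among them) and 107 in limma (49 of the 50). With samples of rest and 60 min only there were 0 and with those of 10 and 30 min only 2. The likelihood ratio test also called 21, 39, 27 and 24 clusters for genotype at rest, 10, 30 and 60 min (limma 1 at 30 min), 67 for time, 80 for the interaction, 25, 10 and 12 for exercise in WT, 4, 6 and 10 in mD3AKO, and 20 for sex, where the quasi-likelihood test called 0. The cause was not tested. The other settings kept the genotype count within 1.5 times. With at least 20 reads it was 34 of 4749 clusters (0.716%), with 26 of the 50 among them, of which 30 were left to test. It was 54 with a sex term (0.523%, 46 of the 50), 72 with levels of 5 to 95% only (0.739%, all 50) and 49 with 3 to 9 CpGs. Chosen after seeing the data, it was 40 without clusters over a GENCODE M21 gene and 49 without those whose number of CpGs differed from the reference. The shares over all clusters in these settings and in the subsets of times were not read.

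Leaving out each of 44 samples gave 40 to 63 called clusters, where 467 to 617 were called over all 51038 clusters, and 33 of the 50 were called each time. In 4 of these fits 1 cluster was higher in mD3AKO. The mean level differed between genotypes by -1.22 points with calls pooled and by -1.37 points in clusters with at least 50 calls, but pooled it was -0.118 at rest and 0.119 at 10 min. Clusters that were not called turned direction near Onecut2 at rest and 60 min only (adjusted p = 1.0) and near Gm10800 in 10 of 44 fits without a sample (adjusted p = 1.0). No paired analysis was possible because the groups share no sample numbers. Depth limits the result: 7519 clusters had fewer than 50 calls in some sample, and a difference that did not pass is not shown to be absent.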
